A study of Cucumis melo with 12 samples.

Results

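Melon genes listed in both seeds and radicles after seed treatment with *Bacillus velezensis* FZB42, a plant-associated bacterium, are described here across tissues and doses. They are the MELO3C identifiers present on both the seed mock list and the radicle mock list, of which there were 40, without 5 that were set aside (MELO3C002457, MELO3C009108, MELO3C011383, MELO3C027069 and MELO3C027194). This left 35 genes of the 3256 identifiers in the series. Of the other melon identifiers, 108 were on seed lists only and 2938 on radicle lists only.

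Melon (*Cucumis melo*) seeds were immersed in water (mock) or in a suspension of the bacterium of low or high density (the low and the high dose). RNA of the seeds and of 5-day-old radicles, the emerged roots, was sequenced in 12 libraries, 2 for each of the 6 groups of tissue and treatment. All seeds, mock included, had been surface sterilized with hypochlorite. Each deposited list holds 1 value per gene for a group, in which the authors had combined its libraries, and only selected genes are listed. The values carry the name FPKM, but in mock radicles 46 genes share the single value of 1.096, which is unusual for values divided by gene length. Gene lengths were not compared, the scale was taken as unknown, and each value is called here a listed value. Levels of different genes are not compared per length. Error between replicates could not be computed from 1 value per group, no difference was tested, and "above" or "below" refers to listed values only. Differences are log2((a + 1)/(b + 1)), where a and b are the listed values of the groups named. In whole tissue, fewer cells of a type and less RNA per cell cannot be told apart.

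A dry seed holds stored transcripts from its maturation, and on imbibition some are degraded while others are translated and new ones are made. The radicle is the first organ to leave the seed coat, and its cells elongate and divide before the root takes up its later functions. A gene with transcripts in both stages may therefore be part of basic cell upkeep, of the transition itself, or of a response to the treatment, which the lists alone do not separate. Being listed does not itself show transcripts in both stages, since the member MELO3C032410 is listed at 0 in low-dose seeds. Among the members, MELO3C014217 is described in the paper as a protein with an HTH myb-type domain (HTH). Proteins with this helix-turn-helix domain bind DNA, and many in plants are transcription factors. The other 34 members are given by identifier, since none of the 3256 identifiers matched the RefSeq gene table used here. No sequence is shown for the same reason.

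The seed mock list repeated a treated value for all 35 members, within a relative tolerance of 1e-06. It equalled the low-dose value in 27 of the 27 members on the low-dose seed list, and the high-dose value in the other 8. No difference between treated and mock seeds was therefore drawn, and seed levels are those of the dose lists. The 44 identifiers on lists of both tissues were 28.8% of those on seed lists and 1.40% of those on radicle lists.

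The members were spread over the dose lists differently in the tissues, as were all listed identifiers. In seeds, 27 were on the low-dose list and 12 on the high-dose list, with 4 on both. By share, 65.7% of the members were on the low-dose seed list alone, 22.9% on the high-dose list alone and 11.4% on both. Over all 153 identifiers on seed lists these shares were 79.1%, 14.4% and 6.54%. In radicles, 32 were on the high-dose list and 15 on the low-dose list, with 12 on both. Of all 3147 identifiers on radicle lists, 98.7% were on the high-dose list and 9.25% on the low-dose list, whereas 42.9% of the members were on the low-dose list. Among melon identifiers listed in radicles only, the share was 8.47%. By seed dose, 9 of the 12 members on the high-dose seed list were on the low-dose radicle list, as were 10 of the 27 on the low-dose seed list. The radicle lists are selective, with no absolute log2 against mock under 0.61 at the high and 0.90 at the low dose, and whether these shares differ beyond error was not tested.

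**Figure D1:**
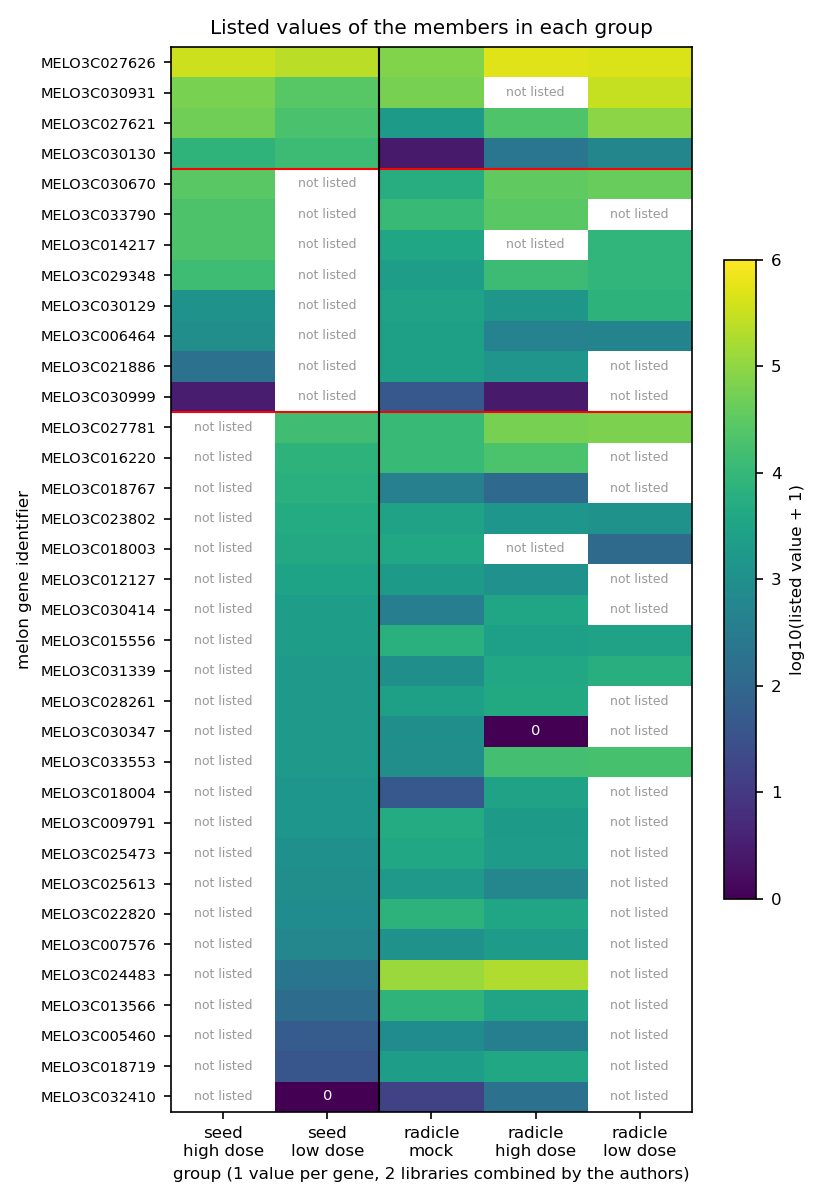
Listed values of the 35 members (rows) in treated seeds and in mock and treated radicles (columns), coloured by log10(listed value + 1), with white cells for genes not on a list and 0 for genes listed at 0. Red lines separate the 4 members on both seed lists (top), the 8 on the high-dose list alone and the 23 on the low-dose list alone. Most members of the upper groups, but few of the bottom group, also have a value in low-dose radicles.

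Members had listed values from 0 to 235360.0 in low-dose seeds (median 1759.6) and from 1.82 to 352225 in high-dose seeds (median 17288). The medians of the whole lists were 1419 and 1367. In mock radicles the members ranged from 1.65 to 123947 (median 2584), compared with a median of 1698 over the list. In high-dose radicles the member median was 2716 and that of the list 1115, and in low-dose radicles 8789.9 and 1696. The sum of the members' values was 30.6% of the sum of the high-dose seed list and 15.1% of the low-dose seed list. In radicles it was 3.03% of the mock list, 7.49% of the high-dose list and 25.8% of the low-dose list. These shares depend on how many genes each list holds, from 32 to 3147.

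In treated seeds and treated radicles, the largest part of these sums came from MELO3C027626, whereas in mock radicles MELO3C024483 held more. MELO3C027626 was listed at 352225 in high-dose seeds, 235360.0 in low-dose seeds, 71689 in mock radicles, 517579 in high-dose radicles and 465339.7 in low-dose radicles. It was lowest in mock radicles, and the treated radicles were above both seed groups. It ranked 2 and 5 on the high-dose and low-dose seed lists, and 13, 3 and 2 on the mock, high-dose and low-dose radicle lists. Its value was 19.3% of the sum of the high-dose seed list and 4.09% of that of the high-dose radicle list.

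Listed values of treated seeds were compared with those of mock radicles. Tissue and treatment both differ here and cannot be told apart, since no mock seed values could be used. The lists of both tissues may have been scaled separately, so the ratio of a gene between tissues includes any difference in scale. In low-dose seeds, 13 of the 27 members were above their value in mock radicles and 14 below, compared with 45.2% and 54.8% of the 31 identifiers of any kind listed in both with a value of at least 1 in either group. Past an absolute log2 of 1, 6 were higher in seeds and 10 lower, beside 22.6% and 35.5% of the 31. In high-dose seeds, 6 of 12 members were higher and 4 lower past this bound, compared with 41.2% and 35.3% of 17 identifiers. The members make up most of these identifiers, so their shares lie near the background. The 6 became 2 when the median ratio of the members was set to 0, which removed a log2 of 1.59. That is the members' own median, so this scaling cannot separate a difference in scale from one of the members. Over the 17 identifiers the median log2 was 0.89. The order of the members by listed value was little shared between low-dose seeds and mock radicles (Spearman rho 0.19 across 27 genes), whereas rho was 0.64 across the 12 members of the high-dose seed list. These correlations are across genes, which are not independent replicates, and the 27 and the 12 members have only 4 in common.

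The widest gap with the seed value higher was that of MELO3C030130. It was listed at 13282 in low-dose seeds and 7833 in high-dose seeds, but at 1.65 in mock radicles, 228 in high-dose radicles and 566 in low-dose radicles. Both seed values were above all radicle values. The mock radicle value lies near the floor of its list, where 18 genes share it, so the gap to mock rests on a low value. Against the radicles of the same dose, which are well above that floor, the seed value was 34.3 times higher at the high dose and 23.5 times higher at the low dose. MELO3C018004 was listed at 1445 in low-dose seeds, 44.4 in mock and 2941 in high-dose radicles. Its mock radicle value was thus the low one of the 3. MELO3C018767 was listed at 6382 in low-dose seeds, 412 in mock and 108 in high-dose radicles, so here both radicle values lay below the seed. MELO3C027621, described with the doses below, and MELO3C030414 (2275 in low-dose seeds and 361 in mock radicles) were also more than 2 log2 higher in low-dose seeds. On the high-dose seed list HTH, MELO3C029348, MELO3C030670 and MELO3C027626 were also more than 2 log2 above mock radicles, with log2 values from 2.30 to 2.59.

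In the opposite direction, MELO3C024483 was listed at 217 in low-dose seeds, 123947 in mock and 196297 in high-dose radicles. The value in mock radicles was 571 times that in seeds, and the gene ranked 5 of 3147 on the mock radicle list but 114 of 131 on the low-dose seed list. This gene is on neither the high-dose seed nor the low-dose radicle list. MELO3C013566 was listed at 129 in low-dose seeds and 8198 in mock radicles, and MELO3C018719 at 39.2 and 2215, log2 differences of -5.98 and -5.79. Of these, MELO3C013566 was lower in high-dose than in mock radicles (3262) and MELO3C018719 higher (3846). MELO3C005460 (55.1 in low-dose seeds and 833 in mock radicles, a log2 of -3.89) and MELO3C022820 (809 and 7632, or -3.24) followed. In high-dose seeds, MELO3C030999 (1.82 in seeds and 44.2 in mock radicles) and MELO3C021886 (178 in seeds and 2622 in mock radicles, or -3.88) lay farthest below mock radicles. MELO3C032410 was listed at 0 in low-dose seeds and at 14.4 in mock and 185 in high-dose radicles, and no fold is given for it in seeds.

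**Figure D2:**
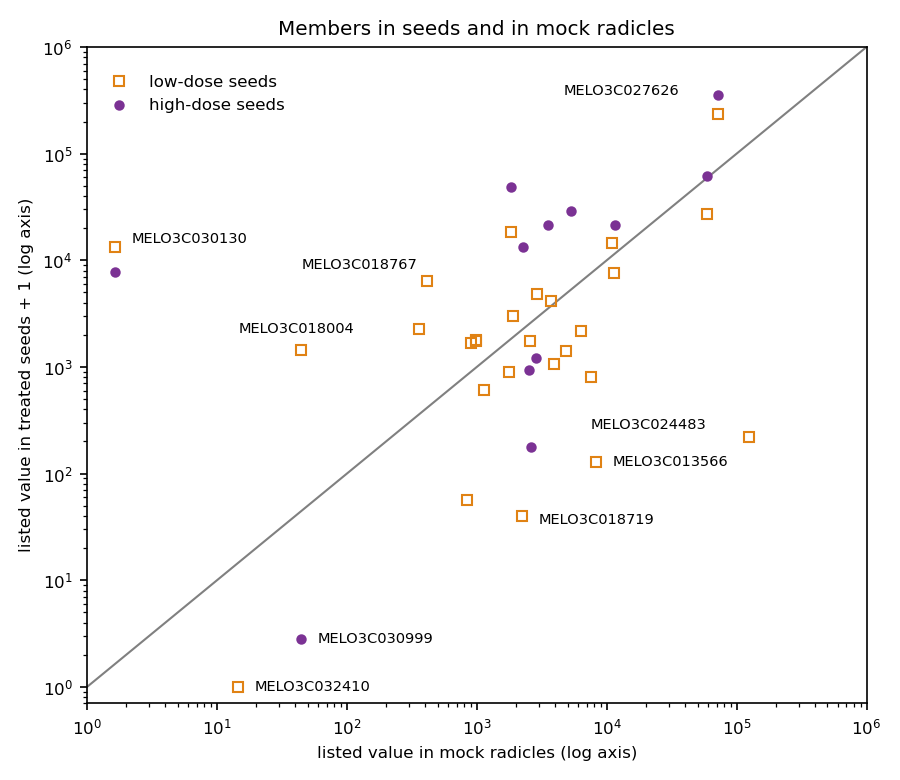
Listed value of each member in treated seeds, plus 1 (vertical), against that in mock radicles (horizontal), both on log axes, with open squares for low-dose and filled circles for high-dose seeds. The line marks equal values. MELO3C030130 lies farthest above the line and MELO3C024483 farthest below it among members with a value above 0 in both tissues.

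Seeds and radicles of the same dose were also set side by side. Of the 10 members on both high-dose lists, 6 had seed and radicle values within 1 log2 of each other, compared with 40% of the 15 identifiers of any kind on both lists, where these 6 are the only ones. MELO3C029348 was listed at 13375 in high-dose seeds and 13042 in high-dose radicles, but at 2267 in mock radicles and 8865 in low-dose radicles. MELO3C030670 was listed at 28747 in high-dose seeds, 5332 in mock radicles, 34089.5 in high-dose radicles and 41041 in low-dose radicles. In both genes mock radicles had the lowest value. MELO3C030999 was low in both high-dose groups, at 1.82 in seeds and 1.70 in radicles, with 44.2 in mock radicles. Across these 10 members, the high-dose seed level had a Spearman rho of 0.88 with the high-dose radicle level and of 0.45 with the mock radicle level. Across the 9 on the high-dose seed and low-dose radicle lists, rho was 0.97 with low-dose and 0.58 with mock radicles. Across the 25 on the low-dose seed and high-dose radicle lists it was 0.25 and 0.10, and across the 10 on both low-dose lists 0.61 and 0.61. These describe few genes that share lists, and no difference between them was tested. The treated radicle lists hold no gene near mock, so rho with treated and rho with mock radicles are not on equal terms. At the low dose, seeds were higher than radicles past 1 log2 in 3 of 10 members and lower in 5, compared with 21.4% and 50% of 14 identifiers.

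In high-dose radicles, 17 of the 32 listed members were above mock and 15 below, compared with 38.9% and 61.1% of all 3106 identifiers on the list. Past 1 log2, 12 were higher and 12 lower, whereas 31.3% of the list were higher and 24.9% lower. The median log2 of the members was 0.71, and that of the whole list was -0.76. The split depended on scaling, since the 12 lower members became 4 when the median ratio of the list was set to 0. No member lay between -0.83 and 0.66, and as given above the list itself holds no absolute log2 under 0.61.

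Members above mock at the high dose included MELO3C018004 (a log2 of 6.02), MELO3C033553, with 901 in mock and 15714 in high-dose radicles (4.12), and MELO3C030414, at 361 and 3305 (3.19). MELO3C030130 had the largest log2, 6.44, from a mock value near the floor of the list. The 5 members above mock by less than 1 log2, with values from 0.66 to 0.83, included MELO3C016220 (11326 in mock and 19639) and MELO3C024483. Among members below mock, MELO3C030347 had a value of 989 in mock radicles and was listed at 0 under the high dose, while low-dose seeds had 1742. Only 8 of the 3106 values on the high-dose radicle list are 0, and this is the only one among the members. MELO3C030999 had a log2 of -4.07 between low values, and MELO3C006464, with 2528 in mock and 458 in high-dose radicles, one of -2.46. MELO3C018767 (-1.91) and MELO3C025613, at 1770.3 and 587 (-1.59), followed. The remaining lower members past the bound, from -1.03 to -1.37, included MELO3C009791, MELO3C013566 and MELO3C022820.

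**Figure D3:**
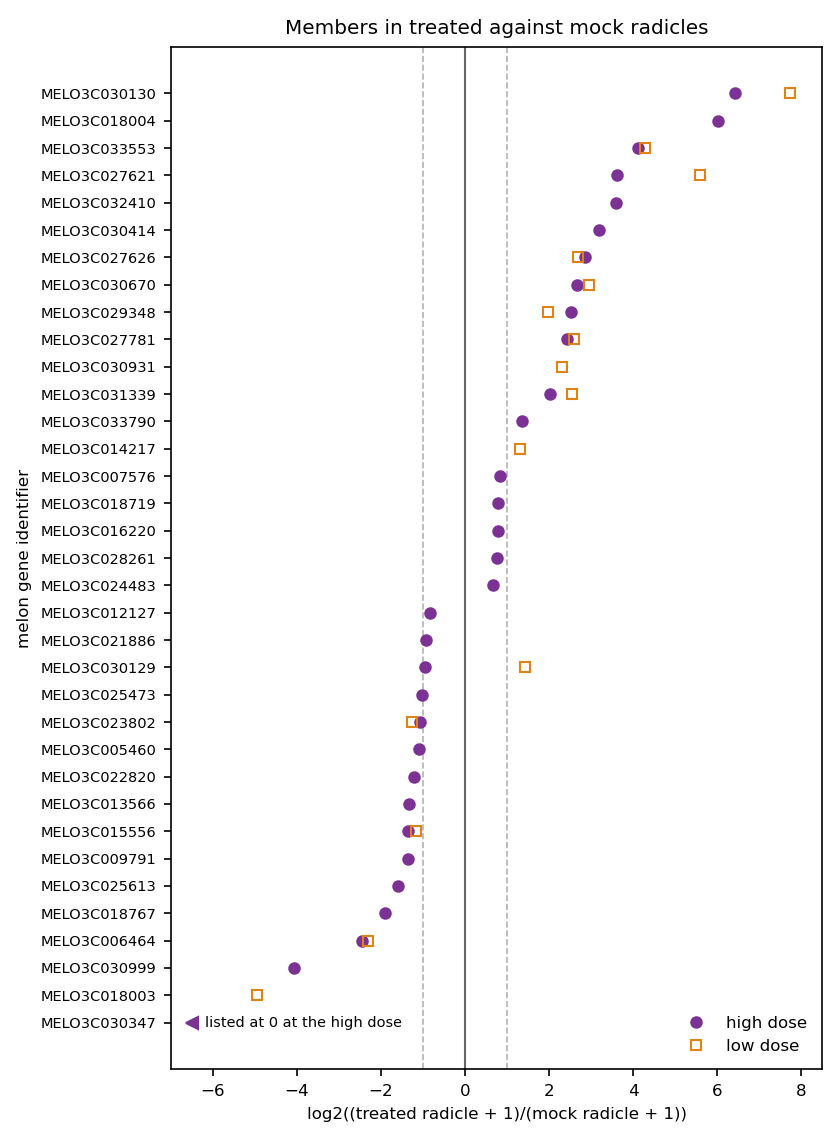
Log2 ratio of the listed value in treated to mock radicles, each with 1 added, for the 35 members, with filled circles for the high dose and open squares for the low dose. Dashed lines mark an absolute log2 of 1, and the triangle marks the gene listed at 0 at the high dose. MELO3C030129 has its symbols on opposite sides of 0.

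In low-dose radicles, 11 of the 15 listed members were above mock and 4 below, and each was past 1 log2. Of all 291 listed identifiers, 74.2% were higher and 23.7% lower past this bound, so the members' shares lie near those of the list. With the median ratio of the list set to 0, 5 members were higher. That median was 1.66, on a list that holds no gene near mock, so every log2 between 0 and 1.66 turns negative. MELO3C030130 had the largest log2 of the members, 7.74, from a mock value near the floor of the list. MELO3C027621 (5.61) and MELO3C033553, at 901 in mock and 17581 in low-dose radicles (4.28), followed. HTH (MELO3C014217) was listed at 21202 in high-dose seeds, 3525 in mock radicles and 8789.9 in low-dose radicles, with a log2 of 1.32 for low-dose against mock radicles that changed sign when the median ratio of the list was set to 0. Its seed value was the highest of the 3, and it is on neither the low-dose seed nor the high-dose radicle list. MELO3C030931 was listed at 61896 in high-dose seeds, 27376 in low-dose seeds, 59610.4 in mock radicles and 294865 in low-dose radicles. Low-dose radicles stood above the other groups, and ranked it 3 on their list. MELO3C018003 was listed at 4178 in low-dose seeds and 3732 in mock radicles, which are close, and at 119 in low-dose radicles, a log2 of -4.96 and the lowest of the members at this dose. These 3 genes are the members on the low-dose but not the high-dose radicle list. MELO3C006464 (509, a log2 of -2.31), MELO3C023802 (2906 in mock and 1216, or -1.26) and MELO3C015556 (6362 and 2834, or -1.17) were the other members below mock.

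Both radicle doses could be set beside each other for 12 members. Both are compared with the same mock values, so each dose is given for itself. For 9 of the 12 the listed values of both doses lay within 0.6 log2, a bound chosen after the values were seen, compared with 67.6% of the 250 identifiers on both lists. MELO3C027781, for example, had values of 10941 in mock, 59292 in high-dose and 65830.4 in low-dose radicles, and MELO3C031339 had 984, 4005 and 5713. The other 3 had low-dose values more than 1 log2 above the high dose, and none had the reverse, compared with 20.4% and 1.2% of the 250 identifiers. Scaling over these 250 genes kept the count at 3, whereas scaling each list to mock by its own median ratio gave 0, with 10 of the 12 in the reverse direction. MELO3C030129 was listed at 1224 in high-dose seeds, 2855 in mock radicles, 1481 in high-dose radicles and 7741 in low-dose radicles. The high-dose radicle was thus below mock (-0.95) and the low-dose radicle above it (1.44), and the high dose lay -2.39 log2 from the low dose, the widest gap of the 12. The low-dose sign, but not the high-dose sign, changed when the median ratio of the list was set to 0. The identifier next to it, MELO3C030130, was above mock at both doses, with the high dose -1.31 log2 from the low dose. The files give no positions, so whether the genes adjoin or share reads is not known.

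The dose pattern could be compared between tissues in the 3 members on all 4 dose lists. MELO3C027621 was listed at 49158 in high-dose seeds and 18526 in low-dose seeds, and at 1820.5 in mock, 22293 in high-dose and 88660.2 in low-dose radicles. The high dose was therefore above the low dose in seeds, by 1.41 log2, and below it in radicles, by -1.99. With the median ratio of the seed lists set to 0, the seed difference of MELO3C027621 was 0.70. For MELO3C027626 the high dose was above the low dose in both tissues, by 0.58 in seeds, which became -0.13 with the median ratio of the seed lists set to 0, and by 0.15 in radicles. For MELO3C030130 it was below in both, at -0.76 and -1.31. With each radicle list scaled to mock by its own median ratio, the radicle order turned for MELO3C027621 (0.46) and MELO3C030130 (1.13). The tissues then no longer differed in direction for the former and did for the latter. For MELO3C027626 this scaling moved the radicle value from 0.15 to 2.60. With the ratio taken over the genes on both radicle lists, the order of MELO3C027621 and MELO3C030130 did not turn (-1.80 and -1.12). With MELO3C030931, which was 1.18 log2 higher in high-dose than in low-dose seeds, 2 of the 4 members on both seed lists were higher at the high dose past 1 log2 and 0 lower, compared with 40% and 10% of the 10 identifiers on both seed lists. With the median ratio of these 10 set to 0, 0 were higher and 1 lower. The difference between tissues was not tested.

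Seed level was set beside the radicle dose lists. Of the 9 members with a listed value of at least 10000 in seeds of either dose, 8 were on the low-dose radicle list, and of the other 26 it was 7. Over all 44 identifiers listed in both tissues, most of which are the members, these counts were 9 of 10 and 12 of 34. The exception among the members was MELO3C033790, listed at 21585 in high-dose seeds, 11650.0 in mock and 29881 in high-dose radicles. This seed level was chosen after the values were seen.

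The numbers in the identifiers, which the rule did not use, were spread unlike those of the lists. The number in 16 of the 35 identifiers (45.7%) is 27000 or higher, compared with 16.1% of melon identifiers on the mock radicle list and 24.3% of those on the mock seed list. Among members on the high-dose seed list it was 9 of 12 (75%), and among those on the low-dose radicle list 10 of 15 (66.7%), compared with 50% and 37.3% of all melon identifiers on these lists. In high-dose radicles, 12 of 15 members with such numbers were above mock, and 5 of 17 with lower numbers. Over all melon identifiers on that list the shares above mock were 76.6% of 471 and 28.7% of 2472, so the members followed the rest of the list. In low-dose radicles, 10 of 10 members with the higher numbers and 1 of 5 with the lower numbers were above mock, whereas the shares over the list were 96% and 62.5%. The only lower number above mock at the low dose was HTH. The split at 27000 was chosen after the values were seen, and what the identifier number stands for was not tested.

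**Figure D4:**
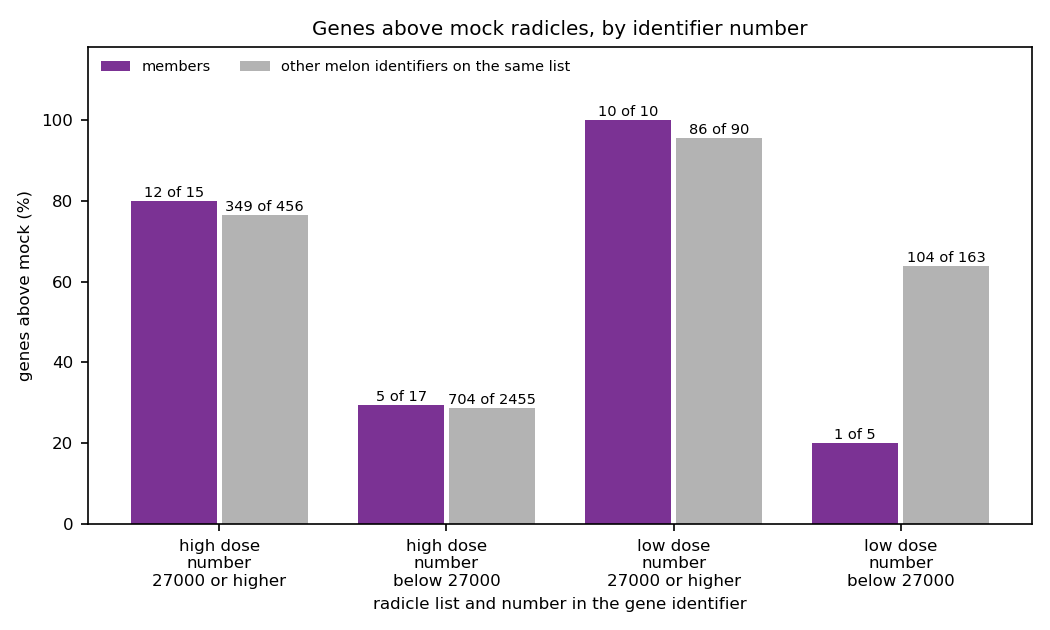
Percentage of genes with a listed value above mock radicles, by dose list and by the number in the melon identifier, with purple bars for the members and grey bars for the other melon identifiers on the same list. Numbers over the bars give the genes above mock and all genes of the bar. At the high dose both kinds of gene differ in the same way between number classes, from 80% and 76.5% to 29.4% and 28.7%.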

How the data were processed

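Samples were grouped by the submitters' titles into mock, low-dose and high-dose seeds and radicles, with 2 libraries each. Per the paper, RNA of biological duplicates was sequenced by a provider whose pipelines used the melon genome of cv. DHL92 v4. Bowtie2 and SAMtools are named in the processing notes of the submitters. The paper describes rRNA-depleted libraries, whereas the labels name polyadenylated RNA. The 6 deposited lists hold a signal that the authors named FPKM, of unstated scale, with 1 value per gene and group. How the libraries were combined is not given in the sources used here. Depth is unknown from the lists, so no interval is given.

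Values under 1e-10 were taken as 0. Ratios used a pseudocount of 1 and genes reaching 1 in either group, and a gene missing from a list was not set to 0. The planned limma test needs values per library and was not run. Named genes are the members on both dose lists of a tissue, those with extreme values or differences, those listed at 0 and the one described in the paper. Others were named as examples. The members and lists were chosen with earlier results of these data known. Counting was run on simulated lists with known changes and no noise, which checks the counting code alone. Alternatives were quantile normalization, median ratio scaling, ranks, a pseudocount of 0.1, leaving out the minimum, a log2 threshold of 2, and minimums of 1 and 10 for listing. Python 3.11.15 was run with matplotlib 3.10.9, scipy 1.17.1, numpy 2.4.6 and pandas 2.3.3.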

Additional observations from a re-analysis of the deposited data

Results flagged for a closer look

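MELO3C027621 stood out because its doses differed in opposite directions in the tissues: the high dose was 1.41 log2 above the low dose in seeds and lay at -1.99 in radicles. The seed value was 0.70, with its sign kept, when the median ratio of the seed lists was set to 0. The radicle value was -1.80 when scaled over the genes on both radicle lists. It was 0.46 when each list was scaled to mock by its own median ratio. The opposite pattern was thus kept by the first radicle scaling and lost with the second. The second takes its medians from lists that hold no gene near mock, so it need not reflect a difference in scale. Which scaling is apt was not tested. MELO3C027621 was 1 of 3 members with values on all 4 dose lists, and each value combines 2 libraries. The difference between the tissues was not tested, because the libraries have no values of their own.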

How the results depend on the processing

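No paired analysis was possible because each column pools its libraries, and for the same reason leaving out each replicate was not run. Leaving out genes listed at 0, adding back the 5 identifiers set aside, and the settings between the radicle doses were chosen after the data were seen. Of 90 alternative counts, 74 stayed within 1.5 times the reported one and 16 did not. Of 55 alternative values of single genes, 29 stayed within that factor, 20 moved further and 6 changed sign. Of members past 1 log2, quantile normalization gave 4 lower in high-dose and 7 higher in low-dose radicles. Median ratio scaling, which removed a median log2 of -0.79 and 1.66 from these lists, gave 4 lower and 5 higher. Both lists hold no gene near mock, so their medians need not reflect a difference in scale. With the median ratio of the members set to 0, a shift of 1.59, 2 were higher in high-dose seeds than in mock radicles. With that of the 10 identifiers on both seed lists set to 0, a shift of 0.71, 0 were higher and 1 lower in high-dose than in low-dose seeds. A log2 threshold of 2 left 3 lower in high-dose radicles, 2 lower in low-dose radicles, 2 lower in high-dose seeds and 6 lower in low-dose seeds than in mock radicles, 0 higher between seed doses and 1 lower between radicle doses. By rank within the members, 3 were above mock radicles in high-dose seeds. At the low dose, median ratio scaling gave -0.35 for MELO3C014217 and -0.23 for MELO3C030129, through the same shift for every gene. Between seed doses it gave -0.13 for MELO3C027626. Scaling each radicle list to mock by its own median ratio put 10 members higher and 0 lower at the high than the low dose, with 0.46 for MELO3C027621, 0.064 for MELO3C030129 and 1.13 for MELO3C030130, while quantile normalization with mock gave MELO3C030130 3.32 at the high and 1.71 at the low dose. Without read counts, what the depth limits was not computed.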
